A study of Chlorocebus sabaeus with 12 samples.

Results

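The IFIT, OAS and MX genes and USP18 are genes that cells switch on in answer to type I and type III interferon, and they were read here with every array probe whose listed gene name is IFIT1, IFIT2, IFIT3, OAS1, OAS2, OAS3, OASL, MX1 or USP18. These were 13 probes for 9 genes, of 41000 probes with 30982 gene names on the array in all. Of them, 11 probes of 8 genes were tested, among 26898 probes in all that passed the filter, which asks that some group has all 3 of its arrays well above background. OAS2 was the gene left without a tested probe.

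The study put a mutant of human FXR, the bile acid receptor encoded by NR1H4, into COS-1 cells, an SV40-transformed line of African green monkey kidney, by transfection for 24 h, and then gave a bile acid or its solvent for a further 24 h. The 4 groups, of 3 arrays each, were S154D cells in chenodeoxycholic acid (CDCA, a natural FXR ligand, which the labels give as 50 mM, a unit that could not be checked here), S154D cells in DMSO (0.1%), S154A cells in CDCA and S154A cells in DMSO. S154D has aspartate and S154A has alanine in place of the same serine, and all 4 groups carry a transfected human FXR mutant, so the arrays analysed here hold no untransfected cells and no wild-type FXR against which an interferon response to the transfection itself could be read. The labels do not say whether the 3 arrays of a group came from separate cultures, so p-values measure only the spread between arrays, which may be technical. In cultures measured as a whole, fewer cells with a transcript and less of it per cell cannot be told apart.

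Interferons bind receptors on the cell surface, and the kinases JAK1 and TYK2 then activate factors such as STAT2, which together with IRF9 turn on interferon-stimulated genes. The trigger in transfected cells can be foreign nucleic acid, seen by sensors such as RIG-I, MDA5 and cGAS. COS-1 cells derive from an African green monkey kidney line. Vero, another kidney line of green monkey, is known for lacking type I interferon genes while still answering added interferon. Whether COS-1 cells lack them was not tested here.

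The RNA is from monkey and the probes are human, so a level depends on how well the 60-base probe matches the monkey transcript, and levels were compared between groups within a probe and never between probes. All 9 gene symbols also occur in the green monkey RefSeq annotation (assembly mChlSab1.0.hap1), where the IFIT genes lie in the order IFIT2, IFIT3, IFIT1B and IFIT1 and the OAS genes in the order OAS1, OAS3 and OAS2. IFIT1B, a close relative of IFIT1, may share signal with its probe. IFIT2, OAS3 and USP18 each have a pair of tested probes at different places in the transcript, and these pairs are shown because their readings diverge in the results. The first 30 bases of each probe are printed as the files give them, with G and C in capitals, after positions in the human build hg17. The exon or untranslated region that each position falls in was not annotated here.
IFIT2 A_23_P24004: aGCtGaCCCaGCatCaGCCaCaCtCtGGGt
IFIT2 A_24_P304071: tCtaaGaGaGaatGGaatGtatGGGaaaaG
OAS3 A_23_P47955: aGaaGGCaGaGaaaGtGaaGaCCaaGtCCa
OAS3 A_24_P335305: tCtttGGCaatGGCCaCCCtGGtGttGGCa
USP18 A_23_P132159: CtGtCattttCCatttCCGttCCtGGatCt
USP18 A_32_P132206: aGaCttGtataCtGGCtGaatatCaGtGCt

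The IFIT2 probes lie at chr10:91058377-91058436 (A_23_P24004) and chr10:91056593-91056652 (A_24_P304071), 1784 bases apart. The OAS3 probes lie at chr12:111873336-111873395 (A_23_P47955) and chr12:111872851-111872910 (A_24_P335305), 485 bases apart. The USP18 probes lie at chr22:17034172-17034231 (A_23_P132159) and chr22:17034533-17034592 (A_32_P132206), 361 bases apart. Within a pair the share of G and C over the whole probe differed, at 45% and 38.3% for IFIT2, at 45% and 53.3% for OAS3, and at 41.7% and 35% for USP18, in the order printed. The single probes lie at chr10:91153418-91153477 for IFIT1, chr10:91089342-91089401 for IFIT3, chr12:111817181-111817240 for OAS1, chr12:119921040-119921099 for OASL and chr21:41752884-41752943 for MX1.

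Levels are given as log2 of the processed signal relative to the 75th percentile of the same array, so that 0 is the level of that percentile and -1 is 1 log2 unit below it. Between 61.6% and 79.8% of spots on an array were well above background, and no probe of these genes was saturated on any array. The NR1H4 probe read 7.46 to 7.94 on all 12 arrays. FABP6, a known FXR target used as a check of the CDCA treatment, was higher with CDCA by 7.08 ± 0.57 log2 units (SE) in S154A cells and had a difference of 0.16 ± 0.57 in S154D cells. VIM, a marker of fibroblast-like lines, cleared background on all 12 arrays at both of its probes, whereas COL1A2 was not on any, and neither probe of the pan-leukocyte marker PTPRC was on any. Slides 1 to 4 held 3, 3, 4 and 2 of the arrays, slide 2 held 2 of the 3 arrays of S154D cells with CDCA, and slide 3 was the only one to hold both S154D groups.

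Most of these genes gave a signal in every group, whatever the mutant or treatment. The probes for IFIT1, IFIT3, OAS1, OASL, both for OAS3, both for USP18 and A_23_P24004 for IFIT2 were well above background on all 12 arrays. MX1 was so on 11 of 12, the exception being S154A_DMSO 3, and the other IFIT2 probe on 10 of 12, the exceptions being S154A_CDCA 2 and S154A_DMSO 2. The OAS2 probe A_23_P204087 was well above background only on S154D_DMSO 2, at -4.64, and on S154A_CDCA 3, at -6.39, and the OAS2 probe A_24_P343929 on 0 arrays.

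**Figure D1:**
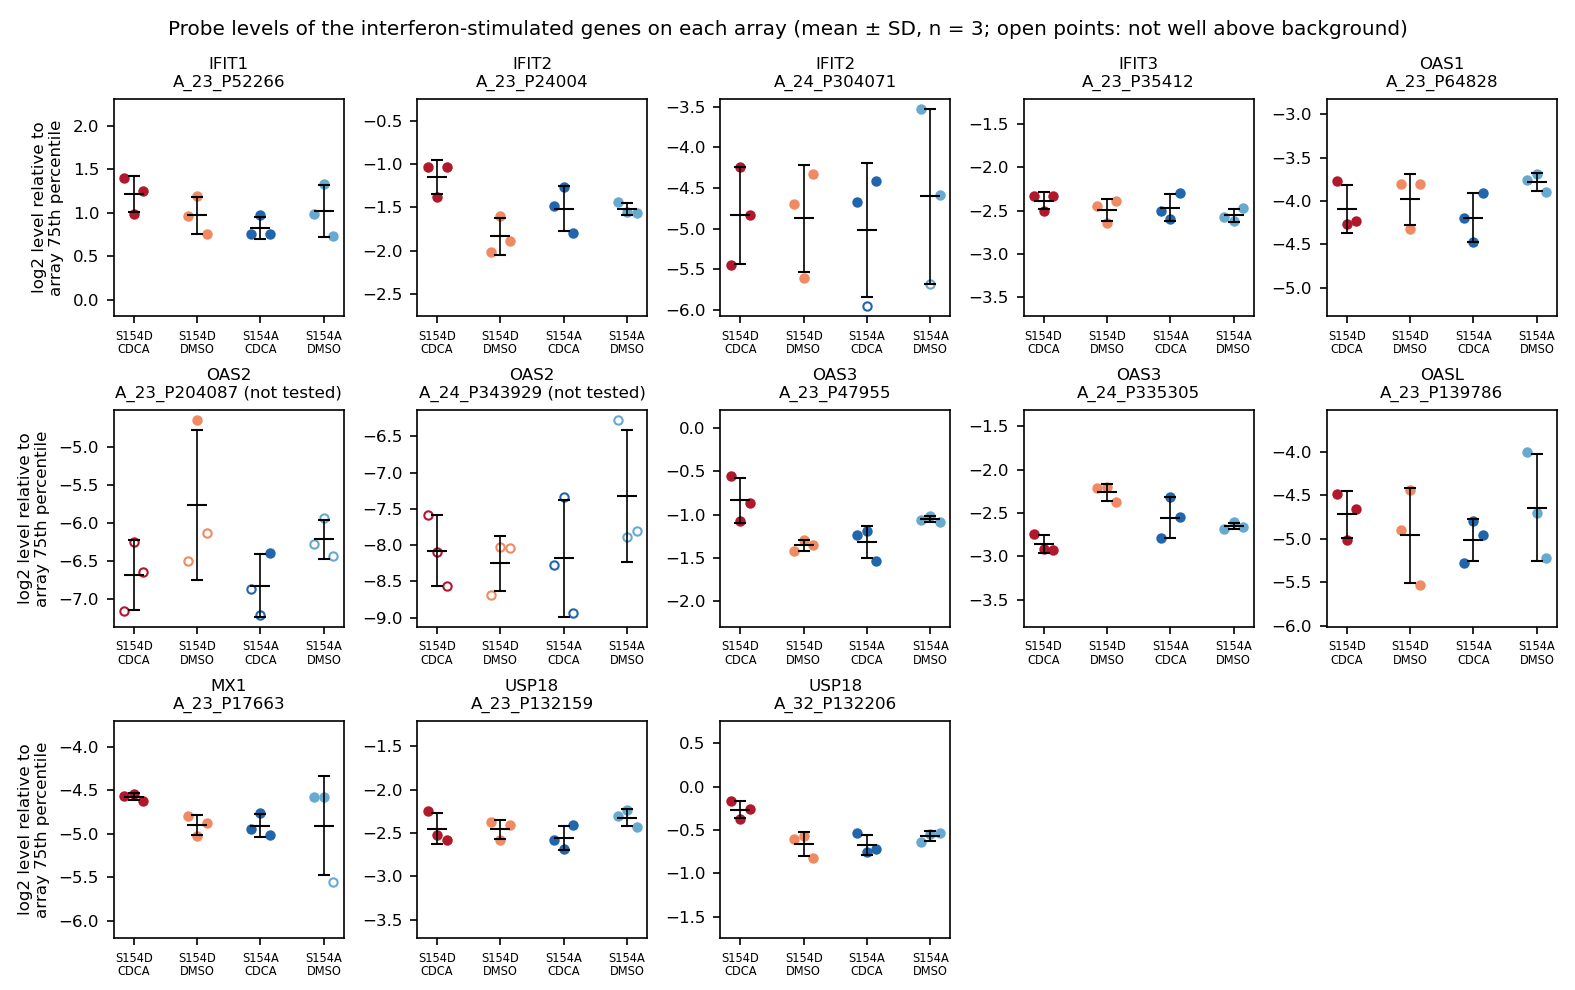
Level of each of the 13 probes on each of the 12 arrays, as log2 relative to the array's 75th percentile (vertical axis), by group (horizontal axis), with mean and SD over 3 arrays; open points are not well above background, and the span of the vertical axis differs between panels. A_23_P24004 for IFIT2 and A_32_P132206 for USP18 are highest in S154D cells with CDCA, and the OAS3 probes run opposite ways.

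The first comparison asked whether CDCA changed these genes in S154D cells. By limma with Benjamini-Hochberg adjustment over all probes, 3 of the 11 probes rose, at IFIT2, OAS3 and USP18, and 1 fell, also at OAS3. The 4 called probes were 36.4% of those tested, against 11.6% of all probes called in this comparison, with 7.05% called higher and 4.52% called lower. The median log2 difference was 0.24 over the 11 probes and -0.02 over all probes, and 9 of the 11 differences were above 0. The median of the 11 was 0.11 after a correction for GC content, with 7 above 0, and it was 0.04 with normexp background correction and 0.02 without slide 2. The arrays of both groups did not overlap at 5 of the 11 probes, 4 higher and 1 lower, where 34.6% of all probes did not overlap.

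IFIT2, an RNA-binding protein that acts with IFIT1 and IFIT3 to hold back viral translation, read -1.04, -1.38 and -1.04 at A_23_P24004 in S154D cells with CDCA, against -2.01, -1.60 and -1.89 with DMSO. All 3 CDCA arrays lay above all 3 DMSO arrays. The difference was 0.68 ± 0.16 log2 units (SE, n = 3 each), or 1.60-fold higher, with a 95% interval of 0.32 to 1.04 (limma, adjusted p = 0.0323). The other IFIT2 probe, dimmer and more scattered, read -5.44, -4.24 and -4.83 with CDCA, against -4.69, -5.60 and -4.33 with DMSO. These groups overlapped throughout, and the interval of the difference, -1.27 to 1.34, takes in the value of the first probe.

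OAS3, the largest of the synthetases that make short oligoadenylates on double-stranded RNA and so activate RNase L, gave opposite readings at its probes. At A_23_P47955 it read -0.56, -1.08 and -0.87 in S154D cells with CDCA, against -1.42, -1.29 and -1.35 with DMSO. The CDCA arrays were all higher, by 0.52 ± 0.14 log2 units or 1.43-fold (SE, n = 3 each; limma, adjusted p = 0.0421). At A_24_P335305 it read -2.74, -2.91 and -2.93 with CDCA, against -2.21, -2.20 and -2.38 with DMSO. Here the CDCA arrays were all lower, by a log2 difference of -0.60 ± 0.13 or 1.51-fold (limma, adjusted p = 0.0279). Over the 12 arrays the readings of both probes had a Pearson correlation of -0.59, given as a description of arrays that share groups and slides, so the direction of OAS3 depends on the probe.

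USP18, the protease that takes ISG15 off proteins and restrains signalling at the interferon receptor, read -0.17, -0.37 and -0.26 at A_32_P132206 in S154D cells with CDCA, against -0.60, -0.57 and -0.82 with DMSO. The arrays did not overlap, and the difference was 0.40 ± 0.11 log2 units or 1.32-fold higher (SE, n = 3 each; limma, adjusted p = 0.0423). At A_23_P132159 it read -2.25, -2.52 and -2.58 with CDCA, against -2.38, -2.58 and -2.41 with DMSO. The groups overlapped at this probe, with a log2 difference of 0.01 and a 95% interval of -0.26 to 0.27.

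MX1, a GTPase that traps viral components, read -4.56, -4.54 and -4.62 in S154D cells with CDCA, against -4.80, -5.03 and -4.88 with DMSO. The CDCA arrays were all higher, but the difference of 0.33 ± 0.23 log2 units was not called (limma, adjusted p = 0.361). IFIT1, which binds the ends of RNAs that lack the host's cap methylation, read 1.40, 0.99 and 1.25 with CDCA, against 0.96, 1.19 and 0.76 with DMSO. Its groups overlapped, and the 95% interval of the difference was -0.15 to 0.64. The remaining differences were 0.11 for IFIT3, which stabilises IFIT1 on RNA, -0.11 for OAS1, a shorter synthetase, and 0.24 for OASL, a family member without synthetase activity, and none of these was called.

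These 4 calls rested on the processing and on single arrays. None of the 11 was called after a correction for GC content, with slide as a fixed block, or without S154D_DMSO 1, S154D_DMSO 3 or S154D_CDCA 3. In each of these settings 0 of all 26898 probes were called as well, so the loss is not particular to these genes. Without S154D_CDCA 1, 1 was called (13.3% of all probes). The count was 2 without S154D_CDCA 2 (4.35% of all probes), S154D_DMSO 2 (9.8%) or S154A_CDCA 1 (7.42%). It was also 2 without any of S154A_DMSO 1, 2 and 3 (7.63%, 8.8% and 6.54%). With slide as a fixed block the log2 differences were 0.68 for IFIT2 at A_23_P24004, 0.40 and -0.53 for OAS3 at A_23_P47955 and A_24_P335305, and 0.34 for USP18 at A_32_P132206. Within slide 3, with 1 array a group, the log2 difference was 0.51 for IFIT2 at A_23_P24004, 0.27 and -0.54 for OAS3 at A_23_P47955 and A_24_P335305, and 0.46 for USP18 at A_32_P132206.

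The GC content of a probe moved with the response in S154D cells. Over all 26898 probes, which are not independent, the Spearman correlation between GC content and log2 difference was -0.56 in S154D cells, against -0.10 in S154A cells. The median difference of all probes in S154D cells was 0.36 at 35% GC, -0.05 at 45% and -0.29 at 53.3%. The USP18 probe called higher has 35% GC, and its 0.40 lies inside the interquartile range of all probes of that GC content, 0.11 to 0.56. IFIT2 at A_23_P24004 and OAS3 at A_23_P47955, both with 45% GC, lie above the upper quartile of 0.14 for their GC content, and OAS3 at A_24_P335305, with 53.3%, lies below the lower quartile of -0.50.

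When each array's trend with GC content was removed, the difference was 0.71 for IFIT2 at A_23_P24004, 0.55 and -0.34 for OAS3 at A_23_P47955 and A_24_P335305, and 0.04 for USP18 at A_32_P132206. OAS1, at 35% GC, then had a difference of -0.47 in place of -0.11, still not called. The OAS3 probes kept their opposite directions. After this correction limma called 0 of 26898 probes, a background of 0%, while 4 of the 11 probes and 5497 of all probes had an unadjusted p under 0.05.

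**Figure D2:**
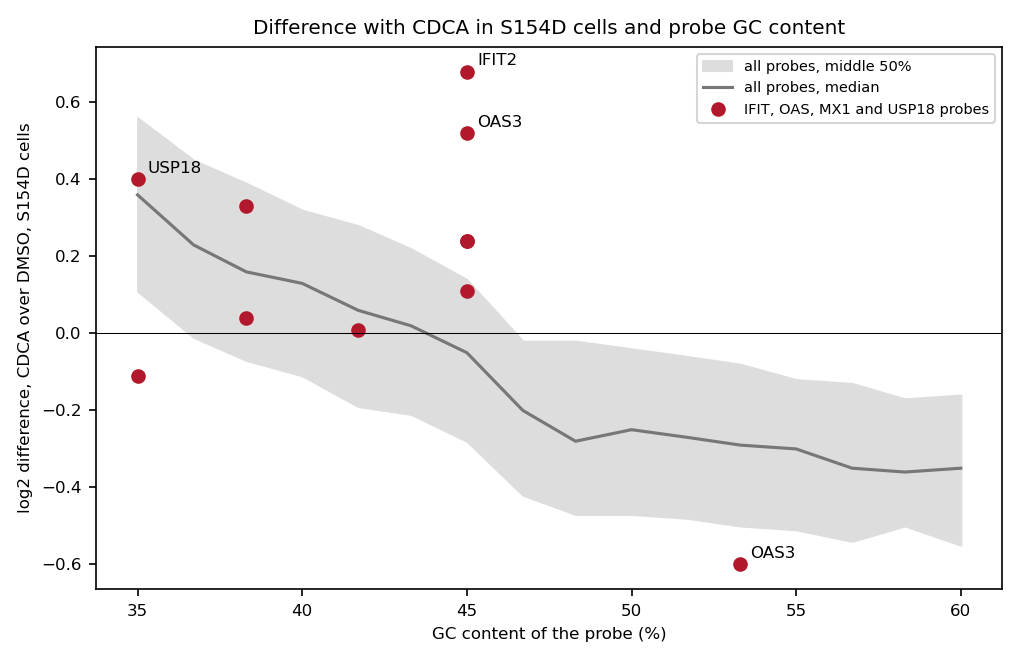
Log2 difference between CDCA and DMSO in S154D cells (vertical axis) against the GC content of the probe in percent (horizontal axis), for the 11 tested probes (circles; IFIT1 and OASL share a point at 45% and 0.24), and the median and quartiles of all probes at each GC content held by at least 100 probes. The USP18 probe sits on the trend of all probes, IFIT2 and the higher OAS3 probe sit above it, and the lower OAS3 probe sits below it.

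In S154A cells 0 of the 11 probes were called with CDCA by limma, against 0.119% of all probes. An unadjusted p under 0.05 was found at 0 of the 11, and at 1500 of all 26898 probes. The median difference was -0.19 log2 units, and 4 of the 11 differences were above 0. IFIT2 at A_23_P24004 read -1.49, -1.27 and -1.79 with CDCA, against -1.44, -1.55 and -1.57 with DMSO, and its groups overlapped with a difference of 0.00 (95% interval -0.36 to 0.36). OAS3 at A_23_P47955 read -1.24, -1.19 and -1.53 with CDCA, against -1.06, -1.02 and -1.09 with DMSO. All 3 CDCA arrays were lower at this probe, by a log2 difference of -0.26 ± 0.14 that was not called (limma, adjusted p = 0.926). OAS1, too, read lower on all 3 CDCA arrays, at -4.20, -4.47 and -3.91 with CDCA, against -3.76, -3.69 and -3.90 with DMSO (difference -0.41, limma adjusted p = 0.895). These were the 2 probes without overlap, where 11.3% of all probes did not overlap.

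Whether the responses differed between the mutants was tested directly, as the S154D response minus the S154A response. By limma 0 of the 11 probes were called, against 0.219% of all probes. Of the 11, 4 had an unadjusted p under 0.05, where 6022 of all 26898 probes did. OAS3 had the smallest adjusted p, with a difference of 0.78 ± 0.20 at A_23_P47955 (SE; limma, adjusted p = 0.0839) and of -0.70 ± 0.18 at A_24_P335305 (adjusted p = 0.085). IFIT2 at A_23_P24004 differed by 0.68 ± 0.23 (adjusted p = 0.133) and USP18 at A_32_P132206 by 0.50 ± 0.15 (adjusted p = 0.114). After the GC correction the difference between the responses was 0.77 and -0.50 for OAS3 in the same order, 0.66 for IFIT2 and 0.11 for USP18. A call in S154D cells and none in S154A cells is therefore not shown to be a difference between the mutants.

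**Figure D3:**
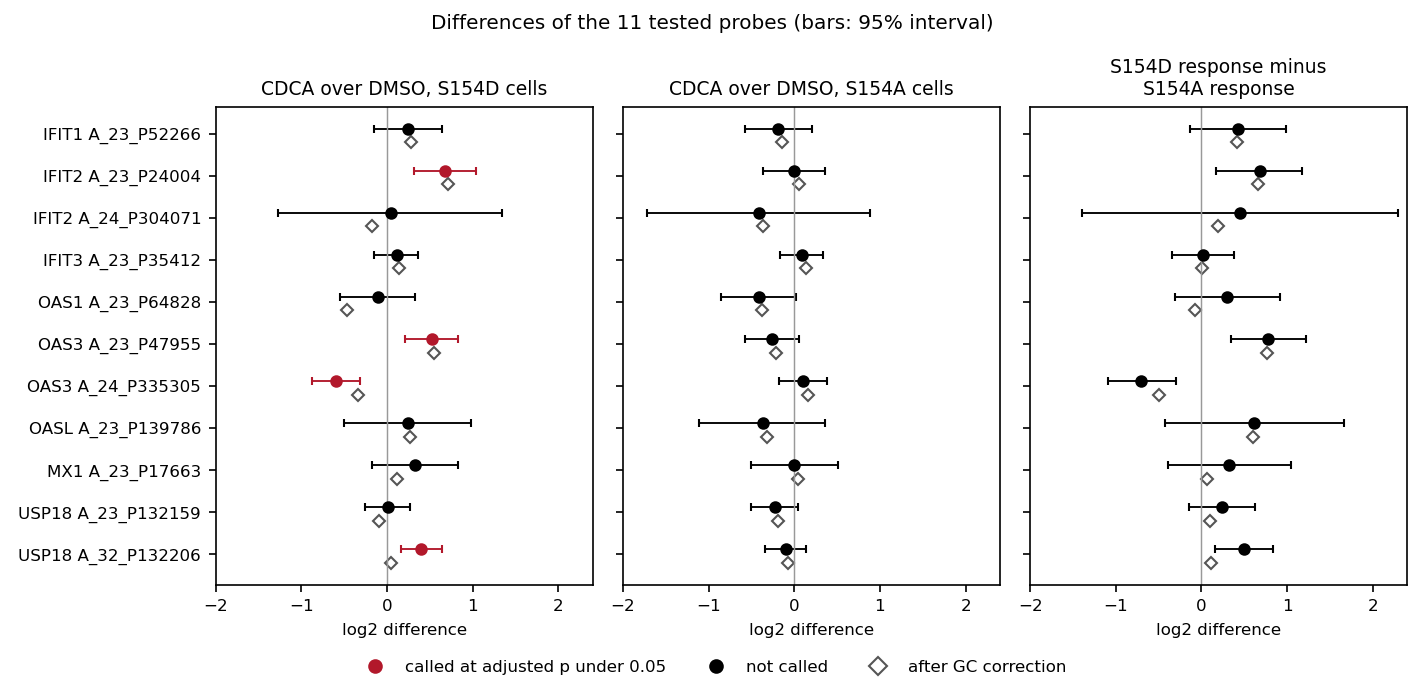
Log2 differences (horizontal axis) of the 11 tested probes (rows) for CDCA over DMSO in S154D cells, for CDCA over DMSO in S154A cells and for the S154D response minus the S154A response, with 95% intervals; red marks a call, black none, and diamonds the value after GC correction. In S154D cells IFIT2 at A_23_P24004 and both OAS3 probes keep their side of 0 after the correction, and USP18 at A_32_P132206 is at 0.04 after it and at 0.40 before.

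Between the mutants under the same treatment, no probe of these genes was called. In CDCA, 0 of 11 were called by limma, against 0.346% of all probes. An unadjusted p under 0.05 was found at 4 of 11, and at 6324 of all 26898 probes. The smallest adjusted p of the 11 by limma was 0.093, at USP18 A_32_P132206 (difference 0.41 ± 0.11, S154D minus S154A). IFIT1, OAS3 at A_23_P47955, MX1 and USP18 at A_32_P132206 were higher in all 3 S154D arrays than in all 3 S154A arrays, which is 4 of 11 probes where 27.9% of all probes did not overlap. For IFIT1 the S154D arrays read 1.40, 0.99 and 1.25, against 0.75, 0.97 and 0.76 in S154A cells, so that the groups are parted by 0.99 against 0.97. In DMSO, 0 of 11 were called by limma, against 0% of all probes. An unadjusted p under 0.05 was found at 1 of 11, and at 1179 of all 26898 probes. In DMSO the S154D arrays were all higher at OAS3 A_24_P335305, and all lower at OAS3 A_23_P47955 and IFIT2 A_23_P24004, which is 3 of 11 where 11.4% of all probes did not overlap. The comparison in DMSO and the CDCA response of S154D cells share the S154D_DMSO arrays, and so are not independent.

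Ordered by group mean, S154D cells with CDCA stood highest at 6 of the 11 probes. The step from the highest group to the next was free of overlap at MX1, where S154D_DMSO came next, although S154A_DMSO 1 and 2, at -4.58 each, lay within the range of the S154D_CDCA arrays. It was also free of overlap at USP18 A_32_P132206, where S154A_DMSO came next. At IFIT2 A_23_P24004 the step without overlap lay at the bottom, between S154A_DMSO and S154D_DMSO, and at OAS3 A_23_P47955 it lay between S154A_DMSO and S154A_CDCA. At OAS3 A_24_P335305 it lay between S154A_DMSO and S154D_CDCA, the lowest group. At IFIT1, IFIT3, OAS1, OASL, IFIT2 A_24_P304071 and USP18 A_23_P132159 every group overlapped the next one in order, and their group means spanned 0.16 to 0.41 log2 units.

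The probes did not vary as a single block over the 12 arrays. Among the 55 pairs of tested probes the Pearson correlation ran from -0.65 to 0.95 with a median of 0.12, and it was above 0.5 in 9 pairs and below 0 in 21. The highest were OAS1 with USP18 A_23_P132159 (0.95), IFIT2 A_23_P24004 with OAS3 A_23_P47955 (0.85) and OAS3 A_23_P47955 with USP18 A_32_P132206 (0.81). These arrays share groups, slides and the GC trend, so the correlations are a description only. Among 16451 probes compared over the 12 arrays, the symbols most like IFIT2 A_23_P24004 were ZMYM2, LAP3 and DLC1 (each 0.98), and those most like OAS3 A_23_P47955 were JAKMIP2 (0.98), CTNNA1 (0.98) and ALOX5 (0.97). Picked as the highest of so many over 12 arrays, such correlations are high by selection. The symbols most like OAS3 A_24_P335305 were DHRS10 (0.95), HLA-C (0.94) and SLC25A6 (0.94), those most like USP18 A_32_P132206 were CLK3 (0.97), CCNL2 (0.96) and MAPK14 (0.96), and those most like IFIT1 included GSTT2 (0.99) and BOLA1 (0.98). For IFIT3 they were FBXO3 (0.87), RNF14 (0.86) and ORC5L (0.86), and for OASL HMGA2 (0.91), CLTA (0.89) and VCX2 (0.88). OAS1 and USP18 A_23_P132159 shared ZNF215 as their closest (0.96 each), followed by COQ6 (0.92) and PRKAB1 (0.91) for OAS1 and by ZNF473 (0.92) and TTC23 (0.92) for USP18.

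Upstream of these genes stand the interferons themselves. Of their 16 probes, 5 were well above background on all 12 arrays and 5 on none. IFNB1, the type I interferon that most cell types make first, was well above background on 1 of 12 arrays, and IFNG, made by lymphocytes, on 0. Of the 6 tested interferon probes none was called in S154D cells with CDCA by limma (median difference 0.17, smallest adjusted p 0.0715). IFNA4 and IFNE1 had differences of 0.01 and 0.35.

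Among receptors and signal carriers, 2 of 20 probes rose and 3 fell in S154D cells with CDCA (25%, against 11.6% of all probes; median difference -0.35). JAK2, a kinase of the interferon gamma receptor, rose by 0.62 ± 0.15 log2 units (limma, adjusted p = 0.0319), and had 0.40 after GC correction. The type I signal carriers STAT2 and TYK2 (A_23_P141917) fell, with log2 differences of -0.64 ± 0.11 (adjusted p = 0.0254) and -0.87 ± 0.20 (adjusted p = 0.0316), and so did IL10RB, a chain of the type III interferon receptor (-0.58 ± 0.11, adjusted p = 0.0259). The other TYK2 probe had -0.33, not called, and -0.05 after GC correction. With that correction the differences were -0.60 for STAT2, -0.61 for TYK2 at A_23_P141917 and -0.80 for IL10RB. The fifth called probe was that of IFNGR1 (0.42), named after its values were seen.

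Among nucleic acid sensors and their relay, 1 of 21 probes rose and 2 fell, a called share of 14.3% that is near the 11.6% of all probes (median difference 0.06). TRAF3, an adaptor on the way to interferon production, rose by 0.76 at A_23_P37068, a probe of 25% GC, and had -0.03 at its other tested probe. All probes of 25% GC had a median difference of 0.74, and the TRAF3 difference after GC correction was 0.04. MYD88, the adaptor of most Toll-like receptors, fell at A_23_P362659 (-0.59), and IRF1, a transcription factor induced by interferon, fell (-0.55), with -0.63 and -0.27 after GC correction. The other tested MYD88 probe, A_23_P92140, had -0.88 ± 0.35, not called, and -0.60 after GC correction. Of the NF-kB and inflammatory genes, 1 of 15 probes rose and 1 fell, a share of 13.3% that is also near the 11.6% of all probes (median difference 0.06). They were BIRC3 (0.54), an inhibitor of apoptosis, and NFKB2 (-0.64), a subunit of NF-kB, with 0.18 and -0.35 after GC correction.

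The other interferon-stimulated genes did not move one way either. Of 83 tested probes 5 rose and 11 fell in S154D cells with CDCA. The called share was 19.3%, against 11.6% of all probes, of which 7.05% were higher and 4.52% lower. The median difference of the list was -0.18, and -0.05 after GC correction, and several of the lower probes belong to similar genes that can share signal. PLSCR1, a phospholipid scramblase with antiviral activity, rose by 0.90 ± 0.13 (limma, adjusted p = 0.0254) at a probe of 31.7% GC, and had 0.42 after GC correction. TRIM14, a mitochondrial adaptor of antiviral signalling, rose by 0.89 at A_24_P197964 and fell at A_23_P334083 (-0.62). The first of these probes has 21.7% GC and the second 45%, and after GC correction their differences were 0.05 and -0.59. The other tested TRIM14 probes, A_23_P216655 and A_23_P425752, had 0.20 and -0.67, not called. After GC correction these had 0.24 and -0.23. HLA-C, which presents peptides to T cells, fell at 2 of its 4 tested probes, with log2 differences of -0.84 and -0.59, and had -0.31 and -0.30, not called, at the others. After GC correction its differences were -0.51, -0.31, -0.53 and -0.15 in that order, and near-identical genes of its family can share signal. CXCL10, a chemokine strongly induced by interferon, was well above background on 0 arrays, and ISG15 and IFI27 were on all 12 at A_23_P819 and A_23_P48513. The other IFI27 probe, A_24_P270460, was well above background on 0 arrays.

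In the other 4 comparisons no probe of any of these lists was called by limma without the GC correction. Of the marker lists, the leukocyte, plasmacytoid dendritic cell and hepatocyte lists had 0 called of 6, 3 and 2 tested probes in S154D cells with CDCA. The kidney and fibroblast markers had 2 of 8 probes lower (25%, against 4.52% of all probes called lower), for COL1A1 (-0.56) and for FN1 at A_24_P85539 (-0.74). Both probes have 51.7% GC, where all probes had a median difference of -0.27. After GC correction their differences were -0.33 and -0.52, and no probe was called. The other FN1 probes had 0.15 and -0.31, not called, and -0.20 and -0.34 after GC correction. The summed linear level of the list, relative to the 75th percentile, was 263 to 318 in S154D cells with CDCA, against 292 to 343 with DMSO. Most of this sum comes from the VIM probes, at mean log2 levels of 7.10 and 6.99 in S154D cells with CDCA. COL1A1 was at -1.17 there and FN1 A_24_P85539 at 1.09, so the sum does not follow them. The part of these marker genes in the results for IFIT2, OAS3 and USP18 was not tested.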

How the data were processed

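Per the labels, 12 one-colour Agilent whole human genome arrays were made, 3 in each of 4 groups. Per the file headers, the deposited intensity is the processed signal of Agilent Feature Extraction (version 9.5.3.1, whereas the submitters' processing notes name version 12), background-subtracted within the array, beside other columns that the authors deposited as flags of 0 or 1 per spot. The deposited series table holds the same intensity values, with no normalisation between arrays.

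Here the intensity was put on the log2 scale, which is not a deposited unit, and each array's 75th percentile over non-control spots (1235 to 2105) was subtracted. Outlier spots, 66 to 196 per array, were removed, 43376 non-control spots were averaged into 41000 probes, and 26898 probes were kept for which some group had all 3 of its arrays well above background. With limma 3.58.1 (R 4.3.3, with data.table version 1.17.8) the 12 arrays were fitted together with a mean for each group (prior degrees of freedom 2.3, residual 8). P-values were two-sided and adjusted by the Benjamini-Hochberg method over all probes of a comparison, and a probe was called at an adjusted p under 0.05. The 5 comparisons were CDCA against DMSO in each mutant, S154D against S154A in each treatment, and the S154D response minus the S154A response. For the GC correction, a lowess curve (span 0.5) of each array against probe GC content was subtracted. The fit was tested on simulated data with independent noise, no slide effect and, for the calls, no GC trend. That test cannot show how the calls here depend on slide or GC content. The number of arrays limits the precision.

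The 9 genes and the 9 gene lists (interferon ligands, receptors and signal, nucleic acid sensors and their relay, other interferon-stimulated genes, NF-kB and inflammatory genes, and markers of kidney and fibroblast lines, leukocytes, plasmacytoid dendritic cells and hepatocytes) were chosen with earlier results of these data known. Per list, up to 4 genes called in any comparison were named by smallest p, or up to 2 of the highest level where none was called, and per probe the 3 symbols of highest correlation. Some genes that these rules name are not reported here. Gene names are those of the array design. Alternatives were another normalisation, background correction and filter, the brightest probe per gene, slide or replicate number as a block, GC correction, single slides, arrays left out, and only the groups compared.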

Additional observations from a re-analysis of the deposited data

How the results depend on the processing

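In S154D cells with CDCA the count of 4 called probes was also 4 with quantile normalisation (13.1% of all probes called) or normexp background correction (9.06%). It was 4 too with slide as a random block (correlation 0.14, 11.8% of all probes called). With only probes well above background on all 12 arrays it was 4 of 9 (16.5% of all probes called). It was 3 of 8 with the brightest probe per gene (10.2% of all probes called). The count was 0 with no normalisation between arrays, no filter, slide as a fixed block, only the groups compared, GC correction alone, GC correction with slide as a fixed block and without slide 2, where a lone S154D_CDCA array is assumed to vary like the others, and 2 without slide 4. Without slide 4, 11.5% of all probes were called. The count for these genes ranged from 0 to 4 when 1 array was left out, where 0% to 13.3% of all probes were called. Called probes over the whole array numbered 3111, against 0 with slide as a fixed block, with GC correction, with no filter or with only the groups compared, 1 with no normalisation, 11 without slide 2 and 1014 with the replicate block. The cause of these shifts was not tested. In the other 4 comparisons the count stayed 0 in each setting run.

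Same-numbered arrays correlated at -0.38 to 0.53 in their deviations from the group means, above 0.1 in 9 of 18 pairs, and 6 of 12 arrays correlated best with their own number, so the numbers were not taken to pair the arrays. With the replicate block 1 probe was called, OAS3 A_24_P335305 (adjusted p = 0.0499), and 0 with GC correction and the replicate block together.

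Over the settings with a test, adjusted p ranged from 0.0238 to 0.395 for IFIT2 A_23_P24004, 0.0321 to 0.455 for OAS3 A_23_P47955, 0.0205 to 0.646 for OAS3 A_24_P335305 and 0.0329 to 0.943 for USP18 A_32_P132206. Of these only USP18 changed sign, at -0.03 with GC correction and slide as a fixed block. OAS2 remained near background, so nothing can be said of its response.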
